A study of Homo sapiens with 23 samples.

Results

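Thalamus organoids (ThOs) labelled as c-JUN knockout were compared with wild-type ThOs at day 25 of culture, using the RNA-seq libraries titled H1cJunKO D25 and H1WT D25. This comparison rests on 4 of the 12 RNA-seq libraries and of the 23 samples in the series, 2 for each genotype. In the tests, the spread was estimated from all 12 RNA-seq libraries. The other libraries were WT and KO ThOs at day 30 and KO ThOs with c-JUN re-expressed, titled H1cJunKO+cJun, at days 25 and 30. All 9497 genes in the deposited tables entered it, with no further filter. ThOs are spherical cultures of pluripotent cells steered towards thalamic tissue, and each library came from 3 pooled organoids. The WT group was unedited H1, an established human embryonic stem cell line. The KO group was H1 in which c-JUN had been knocked out with CRISPR/Cas9. Both groups went through the same neural and thalamic induction, whose patterning step added BMP7 and the MEK inhibitor PD325901. The design names 2 knockout lines, and the labels do not say which of them gave either KO library, so a property of 1 clone and an effect of the knockout cannot be told apart here. Nothing in the labels says that the 2 libraries of a group came from separate differentiations. The p-values below then measure only the spread between libraries of the same group, pooled over all 12, and this spread may be technical.

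c-JUN is a subunit of AP-1, a family of transcription factors that bind DNA as pairs of JUN, FOS, ATF or MAF proteins and respond to JNK and ERK kinase signalling. In the embryonic forebrain the thalamus grows next to the roof plate, a dorsal strip of cells that secretes Wnt and BMP ligands and later borders the choroid plexus, the ciliated epithelium that makes cerebrospinal fluid. Progenitors called radial glia divide beside the ventricle under Notch, FGF and Hedgehog signals and give rise to neurons that leave the cell cycle.

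Values are normalised expression scores. Differences are given on the log2(value + 1) scale as KO minus WT with the standard error (SE) of limma, a linear model fitted to all genes, with Benjamini-Hochberg adjustment across the 9497 genes. A gene passed the test at an adjusted p under 0.05 and a difference of at least 2-fold. An exact permutation test of 2 libraries against 2 could not give a two-sided p below 0.333, so none was used for single genes.

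The targeted gene was examined first. JUN stood at 139 and 153 in the WT libraries and at 353 and 196 in the libraries labelled KO, so both KO values lay above both WT values. Its log2 difference was 0.85 ± 0.32 (SE), and limma gave an adjusted p of 0.294. The transcript was therefore not lower in the libraries labelled KO, which does not test the loss of c-JUN protein. The directions given below rest on the labels. The deposited table does not say which part of the transcript was counted. MAF, another AP-1 relative, was lower in both KO libraries, at 361 and 394 in WT against 124 and 208 in KO (log2 difference -1.23 ± 0.28, SE). The other 5 listed AP-1 genes were JUND, ATF2, ATF3, ATF7 and MAFG, and their log2 differences lay between -0.01 and 0.48. In JUND, the JUN paralogue, the values were 202 and 187 in WT and 222 and 227 in KO. In ATF2, a dimer partner of c-JUN, they were 274 and 282 in WT and 368 and 408 in KO. FOS and the remaining 12 genes of the AP-1 list were not analysed here.

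Replicates of the WT group lay closer together than those of the KO group. Spearman's rho across genes was 0.936 between the WT libraries and 0.821 between the KO libraries, and between 0.83 and 0.867 for the pairs of a WT and a KO library. A difference of 2-fold or more between the replicates was seen for 4.45% of genes in WT and for 17.4% in KO. For this reason values of single genes are given for both KO libraries. The tests use 1 spread per gene for all groups, which can understate that of the KO group. The depth of the libraries is unknown. All values lay between 11 and 9910 with a median of 106 in each library, so the median of all genes could not differ between genotypes. No gene in the tables is below 11 in any library, so a gene silent in one genotype would not be seen here. In these bulk samples, fewer cells of a type and less RNA per cell cannot be told apart.

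A single gene passed the test, which is 0.0105% of the genes. SEMA6A, a transmembrane semaphorin that guides axons and migrating cells, stood at 536 and 540 in WT and fell to 209 and 180 in KO. The log2 fold change was -1.47 ± 0.17 (SE), and limma gave an adjusted p of 0.03. Both KO libraries lay far below the closely matched WT libraries. The call moved with the libraries used: 34 genes passed without KO replicate 1, 34 without KO replicate 2, 3 without WT replicate 2 and 0 without WT replicate 1. With a library left out, the remaining one of its group is assumed to vary like the other groups. When the spread came from the 4 libraries alone, 1 gene passed and it was RSPO2 in place of SEMA6A. With library weights 0 genes passed, and with the replicate block 0 genes passed.

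Many more genes differed at the looser threshold of an unadjusted p under 0.05 and 2-fold, where 234 genes (2.46%) were higher and 270 (2.84%) lower in KO. These counts are a description and are read below beside the gene groups. In the alternatives that left out KO replicate 1 or KO replicate 2, 970 and 767 genes reached this threshold.

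To find which genes moved in both KO libraries, each KO library was set against the range of the 2 WT libraries. Both KO libraries lay at least 2-fold above the higher WT value for 48 genes (0.505%) and at least 2-fold below the lower WT value for 62 genes (0.653%). KO replicate 1 alone was outside the range by this margin for 625 genes and KO replicate 2 for 780, so the 110 shared genes were 17.6% of the first set and 14.1% of the second. Another 11 genes lay outside it in opposite directions in the 2 KO libraries. At a margin of 3-fold there were 7 genes, with RSPO2, WNT8B, MXRA5, CDCA2, C4orf46 and PKN3 below the range and PLEKHA4 above it.

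**Figure D1:**
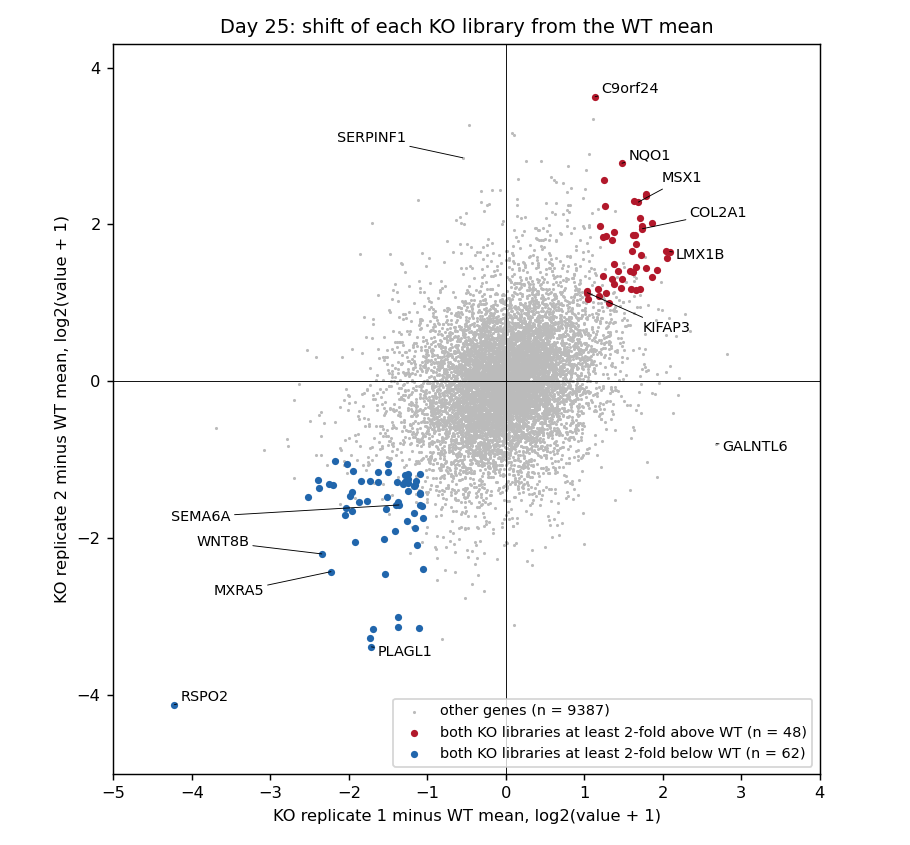
Each point is a gene, placed by the difference of KO replicate 1 (x axis) and KO replicate 2 (y axis) from the WT mean at day 25, both on the log2(value + 1) scale. Blue points are the 62 genes and red points the 48 genes for which both KO libraries lay at least 2-fold outside the WT range, with RSPO2 farthest from the origin. Grey points such as SERPINF1 and GALNTL6 moved in 1 KO library or in opposite directions.

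Secreted Wnt signals of the dorsal midline were among the lowest. RSPO2, a secreted R-spondin that strengthens Wnt signalling, stood at 436 and 580 in WT and at 26 and 28 in KO. Its log2 difference of -4.17 ± 0.67 (SE) was the largest of all genes, with an adjusted p of 0.147 by limma. WNT8B, a Wnt ligand of the cortical hem and dorsal diencephalon, stood at 169 and 334 in WT and at 46 and 51 in KO (-2.27 ± 0.43, SE). For both genes the 2 KO libraries were closely matched and the WT libraries higher by several-fold. WNT7B was also lower, at 114 and 228 in WT against 70 and 44 in KO. The group did not move one way, since WNT10B was 45 and 48 in WT against 132 and 116 in KO, and WNT9A was 89 and 30 in WT against 114 and 126 in KO. Of 13 listed Wnt ligands and agonists, 3 were lower and 1 higher at the unadjusted threshold. Their median difference was 0.15, beside -0.02 for all genes, and it took opposite signs in the 2 KO libraries, 0.50 in KO replicate 1 and -0.62 in KO replicate 2.

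Wnt receptors showed smaller differences. FZD3, a frizzled receptor needed for axon tracts of the forebrain, stood at 3456 and 2674 in WT and at 1466 and 1882 in KO. FZD1 stood at 338 and 359 in WT and at 180 and 202 in KO. LGR4, a receptor for R-spondins, was higher instead, at 106 and 122 in WT against 390 and 173 in KO, and was the 1 gene of 21 listed Wnt receptors and coreceptors past the unadjusted threshold. The median of this list was -0.23 in KO replicate 1 and -0.60 in KO replicate 2, with 9 members below and 3 above both WT libraries. The share of all genes lying below both WT libraries was 21.3%, and the share above was 19.3%.

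Genes of the roof plate list did not move one way. MSX1, a homeobox factor of the dorsal midline, stood at 169 and 132 in WT and at 484 and 732 in KO (1.99 ± 0.48, SE). LMX1B, a LIM homeobox factor of the roof plate and isthmus, stood at 134 and 112 in WT and at 525 and 388 in KO (1.87 ± 0.57, SE). Both KO libraries lay above both WT libraries for each, and the adjusted p by limma was 0.173 and 0.221. GDF7, a BMP ligand that marks the roof plate, was 542 and 411 in WT against 1215 and 789 in KO, and MSX2 was 54 and 72 in WT against 84 and 241 in KO. The zinc-finger factor ZIC2 was lower, at 822 and 733 in WT against 440 and 286 in KO. Within the roof plate list of 18 listed genes, 2 were higher and 4 lower at the unadjusted threshold. The median was 0.35, and it took opposite signs in the 2 KO libraries, 0.45 in KO replicate 1 and -0.11 in KO replicate 2.

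Thalamic identity genes showed no common direction. Of the 19 genes on the thalamus list 9 were listed, and 1, the proneural gene NEUROG1, was lower at the unadjusted threshold, with 74 and 45 in WT against 26 and 28 in KO. TCF7L2, the Wnt effector used as a thalamic marker, gave 224 and 128 in WT and 256 and 121 in KO, so the genotypes overlapped. LHX9, a LIM homeobox factor of thalamic neurons, gave 200 and 190 in WT and 352 and 210 in KO. The median of the list was 0.03, with 0.59 in KO replicate 1 and -0.24 in KO replicate 2. GBX2 and OLIG3, which define thalamic progenitors and neurons, were not analysed here. The labels name the tissue as embryonic stem cells. The pluripotency factors POU5F1 and NANOG were not analysed here, and of 25 genes marking pluripotency and other germ layers 4 were listed, none past the unadjusted threshold.

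Signalling through FGF and ERK was represented by receptors and by feedback inhibitors. FGFR3, a receptor enriched in radial glia, stood at 140 and 121 in WT and at 58 and 35 in KO (-1.51 ± 0.34, SE). FLRT2, a membrane protein that binds FGF receptors and guidance receptors, stood at 200 and 154 in WT and at 33 and 68 in KO (-1.87 ± 0.52, SE). FGFR2 differed in the other direction, at 746 and 628 in WT against 1214 and 1157 in KO. Of 12 listed FGF genes 2 (16.7%), FGFR3 and FLRT2, were lower at the unadjusted threshold, beside 2.84% of all genes, and 0 higher. Their median was -0.24, with -0.02 in KO replicate 1 and -0.28 in KO replicate 2, so the typical member hardly differed in KO replicate 1. Known feedback inhibitors of the pathway are described next.

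SPRY1, a Sprouty protein induced by receptor signalling, stood at 244 and 322 in WT and at 76 and 96 in KO (-1.70 ± 0.36, SE). DUSP6, the phosphatase that turns off ERK, stood at 71 and 74 in WT and at 12 and 51 in KO (-1.5 ± 0.59, SE). IL17RD, a membrane inhibitor of FGF signalling, stood at 1258 and 1157 in WT and at 579 and 710 in KO (-0.91 ± 0.24, SE). Of 29 listed genes of the JNK and ERK cascade 2, SPRY1 and DUSP6, were past the unadjusted threshold, and 10 (34.5%) lay below both WT libraries and 4 above. The median was -0.14. The kinase MAP2K1 (MEK1) gave 99 and 127 in WT and 60 and 78 in KO. JNK1 (MAPK8) gave 264 and 206 in WT and 252 and 147 in KO. Other feedback genes overlapped between the genotypes, with SPRY2 at 110 and 123 in WT against 93 and 120 in KO and SPRY4 at 43 and 55 against 78 and 26.

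Hedgehog and Notch genes were also lower on the whole. GLI2, a transcription factor that carries the Hedgehog signal, stood at 118 and 135 in WT and at 48 and 43 in KO (-1.45 ± 0.33, SE). PTCH1, the Hedgehog receptor and a target of the pathway, stood at 170 and 165 in WT and at 84 and 108 in KO. SMO, its membrane transducer, was higher at 345 and 391 in KO against 235 and 258 in WT. The 11 listed Hedgehog genes had a median of -0.30 in KO replicate 1 and -0.55 in KO replicate 2, and 2 were lower at the unadjusted threshold. NOTCH3 gave 471 and 600 in WT against 304 and 134 in KO, and HES1, a repressor of neuronal genes induced by Notch, gave 116 and 80 in WT and 28 and 66 in KO. DNER, a neuronal Notch ligand, was higher at 188 and 176 in WT against 316 and 506 in KO. Of 20 listed Notch genes 2 were lower and 1 higher at the unadjusted threshold, with a median of -0.35 in KO replicate 1 and -0.73 in KO replicate 2.

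**Figure D2:**
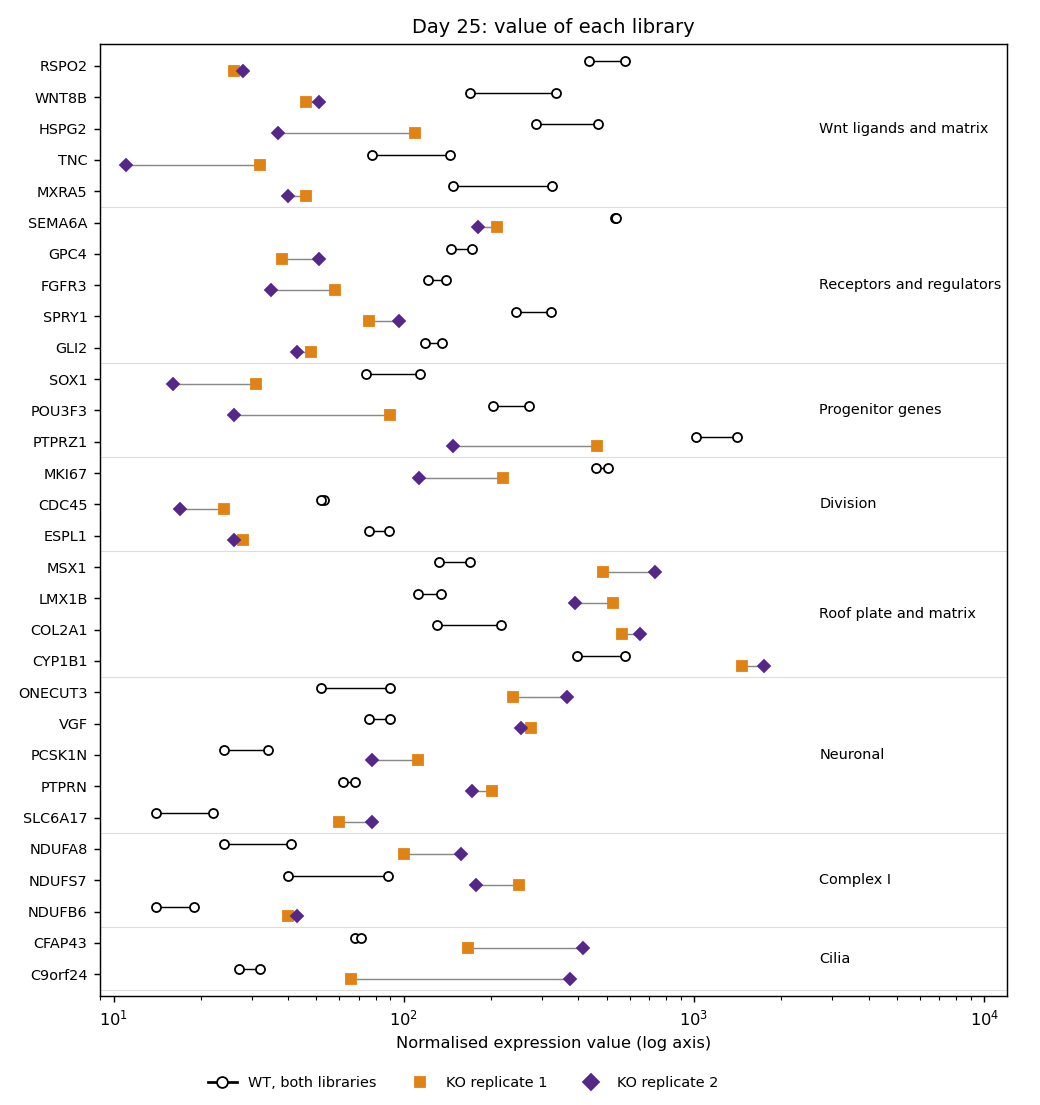
Values of 30 named genes at day 25, with the normalised expression value on a logarithmic x axis and 1 gene per row, grouped by role. Open circles are the 2 WT libraries, orange squares KO replicate 1 and purple diamonds KO replicate 2, and the genotypes do not overlap in any row shown, since these genes were chosen for lying at least 2-fold outside the WT range in both KO libraries.

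Genes of dividing cells were lower in both KO libraries with few exceptions. MKI67, the Ki-67 protein of cycling cells, stood at 461 and 504 in WT and at 220 and 113 in KO (-1.61 ± 0.45, SE). CCNA2, cyclin A2, stood at 84 and 94 in WT and at 20 and 48 in KO, and ESPL1, the separase that splits sister chromatids, at 76 and 89 in WT and at 28 and 26 in KO. Among 52 listed mitosis genes, 51 had a negative difference, 41 (78.8%) lay below both WT libraries and 0 above both. At the unadjusted threshold 10 were lower and 0 higher, and no member passed the adjusted threshold. Their median difference was -0.61 beside -0.02 for all genes, and it was alike in the 2 KO libraries, -0.59 in KO replicate 1 and -0.67 in KO replicate 2. BUB1B, a checkpoint kinase, was the member with a positive difference, at 90 and 98 in WT against 89 and 128 in KO.

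Genes of DNA synthesis followed with a smaller median of -0.47. CDC45, a component of the active replicative helicase, stood at 53 and 52 in WT and at 24 and 17 in KO (-1.33 ± 0.35, SE). RRM2, the ribonucleotide reductase subunit of S phase, stood at 188 and 196 in WT and at 68 and 97 in KO, and MCM7, a helicase subunit, at 592 and 478 in WT and at 308 and 202 in KO. Of 40 listed members, 24 (60%) lay below both WT libraries and 4 were lower at the unadjusted threshold. PCNA, the sliding clamp, was close to the median of the list, at 234 and 216 in WT against 172 and 156 in KO. Without KO replicate 2 the unadjusted count was 7 for mitosis and 3 for DNA synthesis, and without KO replicate 1 it was 12 and 8.

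Progenitor genes were lower in both KO libraries and more so in KO replicate 2. SOX1, a neural progenitor factor, stood at 74 and 114 in WT and at 31 and 16 in KO (-1.99 ± 0.48, SE). PTPRZ1, a receptor phosphatase of radial glia, stood at 1014 and 1412 in WT and at 462 and 148 in KO (-2.19 ± 0.85, SE). POU3F3, a POU factor of upper-layer and forebrain progenitors, stood at 271 and 203 in WT and at 90 and 26 in KO (-2.25 ± 0.49, SE), and its relative POU3F2 at 284 and 265 in WT and at 135 and 71 in KO. In each of these 4 genes KO replicate 2 was the lowest library. NES, the intermediate filament nestin, gave 1260 and 1330 in WT against 1159 and 340 in KO, so KO replicate 1 was close to WT and KO replicate 2 far below it. POU3F2 and POU3F3 were also the 2 listed genes of 20 on the telencephalon list. The 26 listed radial glia and progenitor genes had a median of -0.45 in KO replicate 1 and -0.89 in KO replicate 2. At the unadjusted threshold 5 were lower and 0 higher, and 14 (53.8%) lay below both WT libraries. SOX9 and MSI1 differed by -0.10 and -0.32, and ID4, an inhibitor of proneural factors, lay above both WT libraries at 308 and 244 against 170 and 229. Without KO replicate 2 the count of 5 became 3, and without KO replicate 1 it became 10.

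Genes of maturing neurons were higher, and here KO replicate 1 was the more shifted library. VGF, a precursor of secreted neuropeptides, stood at 90 and 76 in WT and at 275 and 254 in KO (1.66 ± 0.48, SE). NEFL, the light neurofilament chain, stood at 308 and 348 in WT and at 747 and 618 in KO, and SCG2, a secretory granule protein, at 98 and 80 in WT and at 192 and 180 in KO. PCSK1N, an inhibitor of the prohormone convertase, stood at 24 and 34 in WT and at 112 and 78 in KO, and PTPRN, a membrane protein of dense-core vesicles, at 68 and 62 in WT and at 202 and 172 in KO. PCSK1N and PTPRN are not on the neuronal differentiation list described next.

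The 26 listed neuronal differentiation genes had a median of 0.49, with 0.70 in KO replicate 1 and 0.20 in KO replicate 2. At the unadjusted threshold 3 were higher and 2 lower, the lower ones being INSM1 and NEUROG1, which act in newly forming neurons. INSM1 stood at 123 and 120 in WT and at 93 and 28 in KO. The pan-neuronal tubulin TUBB3 overlapped between the genotypes. The ONECUT factors of early-born neurons were higher together, ONECUT3 at 90 and 52 in WT against 238 and 364 in KO (2.09 ± 0.46, SE), ONECUT2 at 232 and 146 against 476 and 403 and ONECUT1 at 47 and 24 against 90 and 66. Synaptic vesicle genes (35 listed) and ion channel genes (27 listed) had medians of 0.39 and 0.37. Of these, 12 (34.3%) and 10 (37%) lay above both WT libraries, beside 19.3% of all genes. At the unadjusted threshold 1 (2.86%) and 2 (7.41%) were higher, beside 2.46% of all genes, so the synaptic vesicle share was near that of all genes. The list medians were 0.63 and 0.62 in KO replicate 1 against 0.07 and 0.17 in KO replicate 2. In either list, 0 members lay at least 2-fold above the WT range in both KO libraries. CACNA1E, a voltage-gated calcium channel subunit on the ion channel list, stood at 109 and 62 in WT and at 197 and 172 in KO. Other genes, on neither list, did lie above the range by that margin. SLC6A17, a vesicular amino acid transporter, stood at 22 and 14 in WT and at 60 and 78 in KO. The GABA receptor genes GABRB2 and GABBR2 gave 44 and 32 against 139 and 96, and 17 and 21 against 50 and 48.

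**Figure D3:**
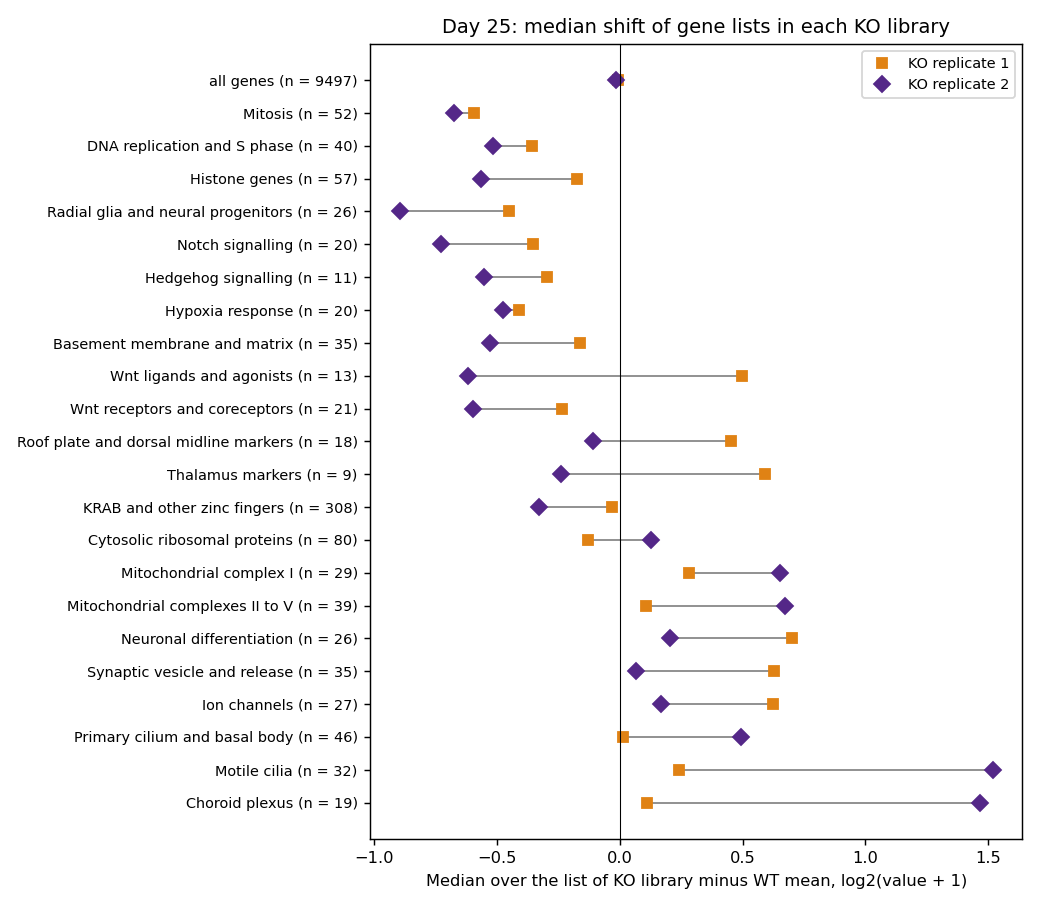
Median difference of each KO library from the WT mean at day 25 over the members of 22 gene lists and over all genes, on the log2(value + 1) scale, with the number of genes of each list in brackets. Mitosis and hypoxia genes were shifted alike in KO replicate 1 (orange squares) and KO replicate 2 (purple diamonds), whereas motile cilia and choroid plexus genes were shifted mainly in KO replicate 2.

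Motile cilia and choroid plexus genes were high chiefly in KO replicate 2. FOXJ1, the regulator of motile ciliogenesis, stood at 270 and 330 in WT, 388 in KO replicate 1 and 1159 in KO replicate 2. CFAP43, an axonemal protein, stood at 68 and 71 in WT and at 167 and 415 in KO (1.91 ± 0.61, SE), and C9orf24, known from ciliated epithelium and not on the list, at 27 and 32 in WT and at 66 and 375 in KO (2.38 ± 0.76, SE). Of 32 listed motile cilia genes, 30 had a positive difference, 16 (50%) lay above both WT libraries and 9 were higher at the unadjusted threshold. The median difference was 0.24 in KO replicate 1 and 1.52 in KO replicate 2. Without KO replicate 2 none of the 32 was higher at the unadjusted threshold, and without KO replicate 1 there were 18. The summed value of the list was 3480 and 3143 in WT, 3936 in KO replicate 1 and 9032 in KO replicate 2.

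Choroid plexus genes gave the same contrast between libraries. ENPP2, an enzyme secreted by this epithelium, stood at 71 and 58 in WT and at 132 and 420 in KO, and SLC13A4, a sulfate transporter, at 88 and 94 in WT and at 162 and 505 in KO. TTR, the transthyretin that the choroid plexus secretes in bulk, overlapped between the genotypes at 922 and 1878 in WT against 541 and 3453 in KO, and FOLR1, its folate receptor, with 34 and 42 against 40 and 346. ATP1B1, a sodium pump subunit, was an exception in which both KO libraries were alike, at 130 and 124 in WT against 403 and 352 in KO (1.56 ± 0.32, SE). Of 19 listed genes 7 (36.8%) were higher and 0 lower at the unadjusted threshold, beside 2.46% and 2.84% of all genes. The median difference was 0.11 in KO replicate 1 and 1.46 in KO replicate 2, so the list had little direction in KO replicate 1. The summed value was 6983 and 5772 in WT, 5679 in KO replicate 1 and 13488 in KO replicate 2. The summed value of 7 listed mesenchyme genes was 1282 and 1222 in WT against 1559 and 2432 in KO. COL1A2, at 198 and 195 in WT against 352 and 734 in KO, and ANXA2, at 386 and 427 against 536 and 1008, made up most of the gap between the KO libraries, and the median over the 7 genes was 0.40 in KO replicate 1 and 0.37 in KO replicate 2. No listed marker was at 0, because the lowest value in any library was 11. The part of such cells in the other differences was not tested.

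**Figure D4:**
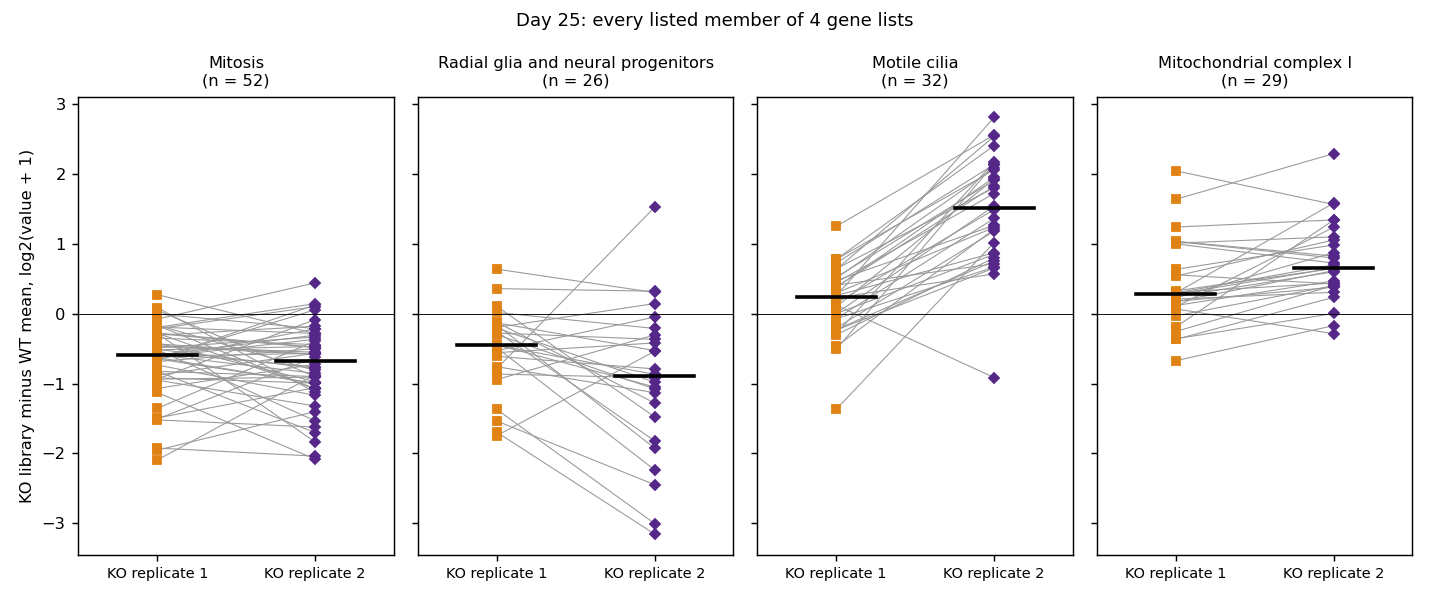
Difference of each KO library from the WT mean, on the log2(value + 1) scale, for every listed member of the mitosis, radial glia, motile cilia and complex I lists, with a grey line joining the 2 values of a gene and a black bar at the median. Mitosis genes sat mostly below 0 in both KO libraries, and motile cilia genes sat closer to 0 in KO replicate 1 than in KO replicate 2.

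Nuclear genes of the mitochondrial respiratory chain were slightly higher. NDUFA8, an accessory subunit of complex I, stood at 24 and 41 in WT and at 100 and 158 in KO (1.97 ± 0.42, SE). NDUFS7, a core subunit, stood at 40 and 88 in WT and at 249 and 178 in KO (1.81 ± 0.35, SE), and NDUFB6 at 14 and 19 in WT and at 40 and 43 in KO. For these 3 genes both KO libraries lay at least 2-fold above the WT range. Of 29 listed complex I genes, 16 (55.2%) lay above both WT libraries, 0 below, and 4 were higher at the unadjusted threshold. The median was 0.49, with 0.28 in KO replicate 1 and 0.65 in KO replicate 2. The 39 listed genes of complexes II to V had a median of 0.38, with 0.11 in KO replicate 1 and 0.67 in KO replicate 2. Of these 14 (35.9%) lay above both WT libraries, beside 19.3% of all genes. At the unadjusted threshold 1 (2.56%) was higher, near the 2.46% of all genes. It was COX6B1, with 45 and 133 in WT against 220 and 222 in KO. The summed value of the complex I list was 2580 and 3448 in WT and 3929 and 4889 in KO. For complexes II to V it was 6744 and 9580 in WT, 9570 in KO replicate 1 and 12424 in KO replicate 2. In this sum KO replicate 1 lay within the range of the WT libraries. PPARGC1A, the coactivator of mitochondrial gene expression PGC-1alpha, stood at 47 and 30 in WT and at 98 and 133 in KO. Cytosolic ribosomal protein genes, 80 in number, had a median of 0.01 with 0 past the unadjusted threshold in either direction.

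Hypoxia genes differed in the opposite direction. ERO1A, an oxidase of the endoplasmic reticulum induced by low oxygen, stood at 96 and 78 in WT and at 18 and 34 in KO (-1.76 ± 0.39, SE). VEGFA, the angiogenic factor, stood at 178 and 188 in WT and at 54 and 123 in KO. Of 20 listed hypoxia genes 13 (65%) lay below both WT libraries and 2 were lower at the unadjusted threshold, with a median of -0.41 in KO replicate 1 and -0.47 in KO replicate 2. HIF1A itself overlapped between the genotypes, at 335 and 442 in WT and 308 and 510 in KO. The glycolysis list (26 listed, median -0.04) had no common direction, with the enzyme GPI higher at 541 and 578 in WT against 746 and 969 in KO.

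Matrix proteins made up a further group among the genes low in both KO libraries. HSPG2, the basement membrane proteoglycan perlecan, stood at 467 and 285 in WT and at 109 and 37 in KO (-2.50 ± 0.75, SE). TNC, the progenitor matrix protein tenascin C, stood at 144 and 78 in WT and at 32 and 11 in KO (-2.43 ± 0.54, SE), the last being the lowest value in the table. MXRA5, a secreted matrix protein, stood at 324 and 148 in WT and at 46 and 40 in KO (-2.33 ± 0.37, SE), and limma gave an adjusted p of 0.147. FN1, fibronectin, gave 426 and 384 in WT and 299 and 67 in KO. Of 35 listed basement membrane and matrix genes 6 were lower and 0 higher at the unadjusted threshold, with a median of -0.16 in KO replicate 1 and -0.53 in KO replicate 2. Without KO replicate 2, 3 were lower and 3 higher, and without KO replicate 1, 6 and 2.

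Proteoglycans of the cell surface, which hold Wnt and FGF ligands, were lower in part. GPC4, a glypican of neural progenitors, stood at 172 and 146 in WT and at 38 and 51 in KO (-1.82 ± 0.32, SE), and the syndecan SDC1 at 162 and 127 in WT and at 16 and 78 in KO. GPC6 was higher, at 158 and 145 in WT against 282 and 346 in KO. COL2A1, the fibrillar collagen of cartilage, stood at 217 and 130 in WT and at 564 and 650 in KO (1.84 ± 0.52, SE). It is on a separate list of 16 listed collagens, which had no common direction, with a median of 0.01. Of these 2 were higher and 0 lower at the unadjusted threshold, while 4 lay above and 6 below both WT libraries.

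Axon guidance genes other than SEMA6A moved in both directions. Of 26 listed semaphorins, plexins and neuropilins, 1 further gene was past the unadjusted threshold, SEMA7A, with 34 and 16 in WT against 75 and 58 in KO. RGMB, a repulsive guidance molecule and BMP coreceptor, stood at 157 and 274 in WT and at 64 and 84 in KO (-1.49 ± 0.31, SE). DRAXIN, a repellent of commissural axons, stood at 496 and 501 in WT and at 303 and 132 in KO. The netrin receptor DCC gave 564 and 609 in WT and 637 and 210 in KO, so KO replicate 1 lay above WT and KO replicate 2 below it. CNTN6, a contactin of the immunoglobulin family, was high in both KO libraries, at 11 and 28 in WT against 58 and 62 in KO. Its WT value of 11 is the lowest in the table.

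NQO1, a quinone reductase, stood at 74 and 78 in WT and at 214 and 528 in KO (2.13 ± 0.56, SE). CYP1B1, a cytochrome P450 that can also oxidise retinol, stood at 578 and 394 in WT and at 1466 and 1738 in KO (1.74 ± 0.78, SE). Of 34 listed NRF2 target genes, NQO1 was the 1 past the unadjusted threshold (2.94%), near the share of all genes, and the median was 0.13. PLAGL1, an imprinted zinc-finger gene that restrains growth, was among the lowest, at 310 and 254 in WT against 85 and 26 in KO (-2.55 ± 0.52, SE). Of 18 listed imprinted genes 2 were lower at the unadjusted threshold and the median was -0.05.

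Large gene families gave small shifts. The 308 listed zinc-finger genes had a median of -0.20, with -0.03 in KO replicate 1 and -0.33 in KO replicate 2. At the unadjusted threshold 12 of them (3.9%) were lower and 4 (1.3%) higher, beside 2.84% and 2.46% of all genes. The 108 chromatin remodelers and modifiers had a median of -0.19, with 4 (3.7%) lower and 1 (0.926%) higher. Of these 108 genes, 0 lay at least 2-fold outside the WT range in both KO libraries. BCOR, a corepressor that is not on this list, lay below the range by that margin, at 254 and 240 in WT against 110 and 98 in KO. Histone genes, which share near-identical copies and are uncertain for that reason, had a median of -0.39 over 57 listed members.

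On some genes the KO libraries disagreed with each other, and the group mean hid this. SERPINF1, a secreted anti-angiogenic factor, stood at 141 and 138 in WT, 95 in KO replicate 1 and 1012 in KO replicate 2. SH3KBP1, an adaptor of receptor endocytosis, stood at 45 and 40 in WT, 11 in KO replicate 1 and 133 in KO replicate 2. In the reverse direction GALNTL6 stood at 24 and 26 in WT, 166 in KO replicate 1 and 14 in KO replicate 2. GLDC, the glycine decarboxylase, stood at 92 and 114 in WT, 110 in KO replicate 1 and 11 in KO replicate 2. For SH3KBP1 and GLDC the value of 11 is the lowest in the table. The source of these gaps was not tested.

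The 110 genes were followed in the day 30 libraries, which were not used to choose them. Of the 48 genes high at day 25, 42 (87.5%) had a positive difference at day 30, and of the 62 low genes 47 (75.8%) had a negative one, against 59.4% of all genes with the same sign on both days. The same sign with at least 2-fold was seen in 13 of the 48 and 11 of the 62, against 3.39% of all genes. That count uses the group means and is looser than the rule that chose the 110 genes. By the rule itself, 41 genes lay outside the WT range in both KO libraries at day 30. Of these, 5 were among the 110 and had the same direction. The medians shrank from 1.59 to 0.62 and from -1.54 to -0.36. With KO replicate 1 of day 30 alone, 36 of the 48 (75%) and 35 of the 62 (56.5%) kept the sign, against 55.8% of all genes. With KO replicate 2 of day 30 alone these were 41 (85.4%) and 46 (74.2%), against 58.1%.

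Among the genes low on both days was MXRA5, at 211 and 180 in WT and 62 and 52 in KO at day 30, and SPRY1, at 184 and 229 in WT and 98 and 52 in KO. PLEKHA4, an adaptor that favours Wnt signalling, stayed high, at 18 and 24 in WT against 78 and 87 in KO at day 25 and at 58 and 28 against 128 and 162 at day 30. LMX1B was 160 and 76 in WT and 375 and 368 in KO at day 30. The feedback inhibitors DUSP6 and IL17RD were low at day 30 too, DUSP6 at 113 and 122 in WT against 40 and 21 in KO and IL17RD at 708 and 788 against 354 and 345. LGR4 was again high, at 127 and 103 in WT against 373 and 368 in KO. The median of the mitosis list moved from -0.61 to -0.23 and that of DNA synthesis from -0.47 to 0.00. Neuronal differentiation moved from 0.49 to -0.09, synaptic vesicle genes from 0.39 to -0.01 and ion channels from 0.37 to 0.02. Complex I moved from 0.49 to 0.09, complexes II to V from 0.38 to 0.01 and choroid plexus from 0.99 to 0.03. Motile cilia moved from 0.82 to 0.46, and the hypoxia list stayed lower, at -0.46 and -0.45. SEMA6A was 349 and 326 in WT and 314 and 318 in KO at day 30. KIFAP3, a kinesin-associated protein, was closely matched within each genotype at day 25, at 242 and 243 in WT against 500 and 532 in KO (1.09 ± 0.18, SE), and gave 432 and 496 in WT against 365 and 401 in KO at day 30. The test of the difference between the days called 0 genes by limma, and 535 had an unadjusted p under 0.05.

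**Figure D5:**
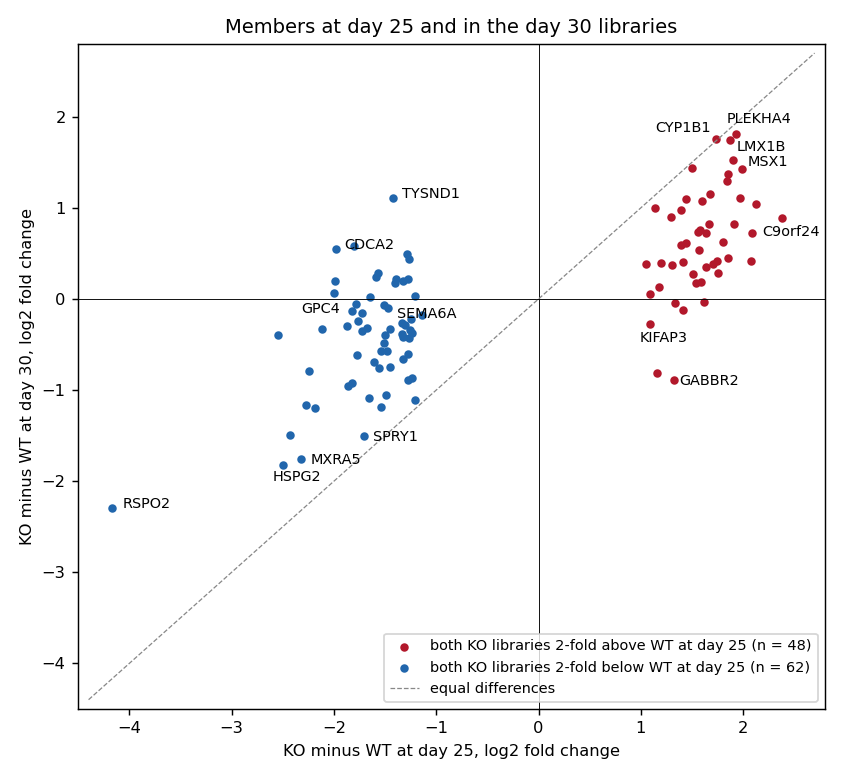
KO minus WT log2 fold change at day 25 (x axis) and at day 30 (y axis) for the 48 genes high (red) and the 62 genes low (blue) in both KO libraries at day 25, with a dashed line where the differences are equal. RSPO2 and MXRA5 stayed low and LMX1B and CYP1B1 high, whereas SEMA6A and GPC4 lie near 0 on the y axis and KIFAP3 and TYSND1 had the opposite sign at day 30.

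Promoter sequences of the 110 genes were searched for the letters that AP-1 dimers bind. Windows from 250 bases before to 50 bases after each start were taken from RefSeq (GRCh38.p14), which held 34 of the 48 high and 50 of the 62 low genes. The letters searched on both strands were TGACTCA, the AP-1 element, which reads TGAGTCA on the other strand, and TGACGTCA, the cyclic AMP element bound by ATF and CREB dimers. Neither contains the other, and each was counted once per gene. TGACTCA was found for 3 of the 34 high genes (8.82%) and 5 of the 50 low genes (10%), beside 4.27% of the 7817 listed genes with a window and 6.05% of all genes in the RefSeq table. TGACGTCA was found for 2 high genes (5.88%) and 1 low gene (2%), beside 4.22% of the listed genes. A match describes the letters and does not show binding, and the few matches allow no comparison of the sets.

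The genes with TGACTCA were SLC6A17, PCSK1N and DDR2 among the high and GLI2, PLAGL1, PHACTR4, C4orf46 and TYSND1 among the low, and those with TGACGTCA were VGF, CLTB and ZFP36L1. The 250 bases before the start are shown for 5 genes described above, because they hold the motif and lay far outside the WT range, with the motif in capitals and read 5′ to 3′ on the strand of the gene. They lie at chr2:120792031-120792280 (plus strand) for GLI2, chr6:143961413-143961662 (minus) for PLAGL1, chr1:110150244-110150493 (plus) for SLC6A17, chrX:48835611-48835860 (minus) for PCSK1N and chr7:101165570-101165819 (minus) for VGF. PLAGL1 and GLI2 have more than 1 start in the table, and the window that holds the motif is the one shown.
GLI2: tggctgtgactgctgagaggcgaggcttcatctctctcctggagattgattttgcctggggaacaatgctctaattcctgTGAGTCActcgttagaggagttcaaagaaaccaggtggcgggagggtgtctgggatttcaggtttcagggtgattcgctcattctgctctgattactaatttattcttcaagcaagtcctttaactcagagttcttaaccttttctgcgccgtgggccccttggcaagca
PLAGL1: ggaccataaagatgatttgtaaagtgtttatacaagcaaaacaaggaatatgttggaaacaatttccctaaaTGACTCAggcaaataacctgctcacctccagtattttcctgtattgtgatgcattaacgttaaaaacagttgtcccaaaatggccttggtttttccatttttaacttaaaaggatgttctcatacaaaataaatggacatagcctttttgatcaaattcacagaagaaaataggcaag
SLC6A17: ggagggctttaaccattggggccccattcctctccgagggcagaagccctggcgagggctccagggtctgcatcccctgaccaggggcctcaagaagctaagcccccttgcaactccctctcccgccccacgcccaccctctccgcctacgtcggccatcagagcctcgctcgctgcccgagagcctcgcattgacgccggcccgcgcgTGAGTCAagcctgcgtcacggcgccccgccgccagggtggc
PCSK1N: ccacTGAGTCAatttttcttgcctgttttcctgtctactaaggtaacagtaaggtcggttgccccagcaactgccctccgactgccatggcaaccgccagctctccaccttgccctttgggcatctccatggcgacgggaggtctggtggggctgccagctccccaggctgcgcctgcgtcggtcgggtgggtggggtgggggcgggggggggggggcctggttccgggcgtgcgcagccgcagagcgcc
VGF: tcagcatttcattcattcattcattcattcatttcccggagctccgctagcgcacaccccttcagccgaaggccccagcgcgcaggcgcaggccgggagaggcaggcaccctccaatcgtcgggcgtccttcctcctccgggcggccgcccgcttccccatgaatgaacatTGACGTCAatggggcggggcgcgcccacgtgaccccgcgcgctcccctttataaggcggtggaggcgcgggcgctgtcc

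The motif of GLI2 began 170 bases before the start and that of PLAGL1 178 bases before it. In SLC6A17 it began 41 bases and in PCSK1N 246 bases before the start. The element of VGF began 79 bases before its start. These genes differed in both directions between the genotypes, GLI2 and PLAGL1 lower and the other 3 higher in KO. MSX1 and WNT8B had a window with neither motif, and no window was held for SEMA6A, RSPO2, COL2A1 or CYP1B1. Only exact matches were sought, so a variant of either motif would not be found.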

How the data were processed

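RNA was taken from 3 pooled organoids per library and sequenced, and the authors deposited 1 table per library. The deposited values are a normalised expression score rounded to whole numbers, with the same minimum, median and maximum in every library, and the authors' normalization and filter are not given in the sources used here. The submitters' processing notes name bcl2fastq, Bowtie2 and RSEM and the build hg19, whereas positions in the tables are on GRCh38. Because the values are not read counts, no count model was used.

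After adding 1, the scores were put on a log2 scale and fitted by limma (version 3.58.1, R 4.3.3). One mean per group was fitted to all 12 RNA-seq libraries, which share 1 estimate of the spread, with 6 residual and 5.29 prior degrees of freedom. Fold changes on this scale understate those of low genes. The code was tested on simulated data. Tables and figures were made with Python 3.11.15, pandas 2.3.3 and matplotlib 3.10.9. Promoter windows came from RefSeq.

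The genes and lists were chosen with earlier results of these data known. Genes were named where they were JUN or AP-1 members, passed the test, were among the 20 per direction with the largest fold change of those outside the WT range, were up to 4 members per list and direction with the smallest p among those that did not overlap, were named by the study, or were the 5 per direction with the largest gap between the KO libraries. MAPK8, SPRY2, SPRY4, MKI67, BUB1B, MCM7, PCNA, SOX9, MSI1, PTPRN, GABRB2, GABBR2, ENPP2, TTR, FOLR1, NDUFB6, PPARGC1A, VEGFA, HIF1A, BCOR, KIFAP3, TYSND1, DDR2, PHACTR4, CLTB and ZFP36L1 fall outside this rule and were chosen after their values were seen. Alternatives changed the pseudocount, a filter on low values, the scaling, the libraries in the fit, library weights and the replicate block.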

Additional observations from a re-analysis of the deposited data

How the results depend on the processing

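The direction of the gene differences named above held under every alternative other than leaving out a library, and the limma adjusted p of SEMA6A lay between 0.0186 and 0.536. SEMA6A did not pass with the replicate block, with library weights, with the spread taken from the 4 libraries alone or without either WT library. The number of genes passing was 0 with the replicate block, 0 with library weights and between 0 and 34 with a library left out. Deviations of same-numbered libraries correlated by 0.0837, so the numbers were not taken to pair the samples, and under the replicate block 495 genes reached the unadjusted threshold. That count lay between 426 and 970 with a library left out. The count outside the WT range in both KO libraries was 7 at a 3-fold and 536 at a 1.5-fold margin and lay between 288 and 780 with a library left out. Library weights moved the share of higher genes at the unadjusted threshold from 46.4% to 39%. The list counts without either KO library were added after the data were seen.

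With a library left out, the sign turned for 15 of the 121 genes named. The log2 differences then ranged from -0.54 to 0.51 for ATF7, -0.55 to 2.85 for SERPINF1, -0.79 to 2.68 for GALNTL6, -0.48 to 0.59 for TCF7L2, -0.66 to 0.11 for MAPK8, -0.32 to 0.0446 for SPRY2 and -0.88 to 0.67 for SPRY4. They ranged from -0.0767 to 0.44 for BUB1B, -0.21 to 0.0184 for SOX9, -0.60 to 0.0666 for TUBB3 and -1.28 to 1.39 for TTR. For HIF1A the range was -0.32 to 0.41, for DCC -1.48 to 0.12, for SH3KBP1 -1.86 to 1.63 and for GLDC -3.11 to 0.10. The cause was not tested. The depth of the libraries is unknown, so no interval based on counts could be given.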
